A study of Mus musculus with 14 samples.

Results

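The effect of Prmt5 loss was not the same in the 2 fractions of fetal liver cells compared here. Cells of the E14.5 mouse fetal liver had been sorted by Ter119, a surface marker of maturing red cell precursors, into a Ter119neg and a Ter119pos fraction. Knockout (KO) embryos were Prmt5fl/fl with the Vav-cre transgene, which drives Cre in blood-forming cells, and controls (WT) were Prmt5fl/fl without it, so that every embryo carried the floxed allele. The comparison described here is the genotype by fraction interaction: the KO effect in Ter119pos cells minus the KO effect in Ter119neg cells, each a log2 fold change of KO over WT. It uses 8 of the 14 libraries in the series, 2 in each of 4 groups. The other 6, from sorted LK cells, had no Ter119 fractions and were not used. A positive interaction value means that the gene was higher after Prmt5 loss in Ter119pos cells than its change in Ter119neg cells would give, and a negative value the opposite. All interaction values given below are such log2 differences. Genes were then sorted by whether the KO effect was called in 1 fraction, in both, or in opposite directions.

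Prmt5 is the main enzyme that places symmetric dimethyl marks on arginines, on histones and on the Sm proteins of the splicing machinery among other substrates, and its loss is known to activate p53. Red cell precursors first divide as progenitors and then, once Ter119 appears, pass through a few last divisions while they make globin, heme and the membrane skeleton, condense the nucleus and shut down most other genes. A gene can therefore stand at very different levels in the fractions before any deletion, and the interaction asks whether deletion moved those levels in the same way.

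The 5 embryos gave paired fractions in part. Mice 1 and 2 gave both KO fractions and mouse 4 gave a WT library of each, while the other WT libraries came from mouse 3 (Ter119neg) and mouse 5 (Ter119pos). In the fit with the mouse as a block, given below as an alternative, the WT difference between fractions therefore rests on mouse 4 alone. Library totals ran from 19880052 to 29652947 estimated counts. Summed levels of 8 erythroid markers fitted the sort, at 247780 to 354630 CPM (counts normalised to library size) in the Ter119pos libraries. In the Ter119neg libraries they were far lower, at 359.9 and 421.55 CPM in WT but 646.5 and 1161 CPM in KO, with no overlap. What part this difference had in genes that rose in Ter119neg KO was not tested. The Ter119pos libraries differed in make-up by genotype. In them, 5 small structural RNAs (7SL as 2 genes, 7SK, RNase P and RNase MRP RNA) took 34.6% and 35.9% of all counts in KO but 6.08% and 6.20% in WT, against 27.6% and 31.4% in Ter119neg KO and 16.7% and 23.3% in Ter119neg WT. Globin counts took 16.4% and 18.3% in Ter119pos KO and 24.6% and 25.1% in Ter119pos WT. TMM scaling factors were 0.408 and 0.482 in Ter119pos KO and 0.792 and 0.855 in Ter119pos WT, so the interaction values rest on the scaling.

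**Figure D1:**
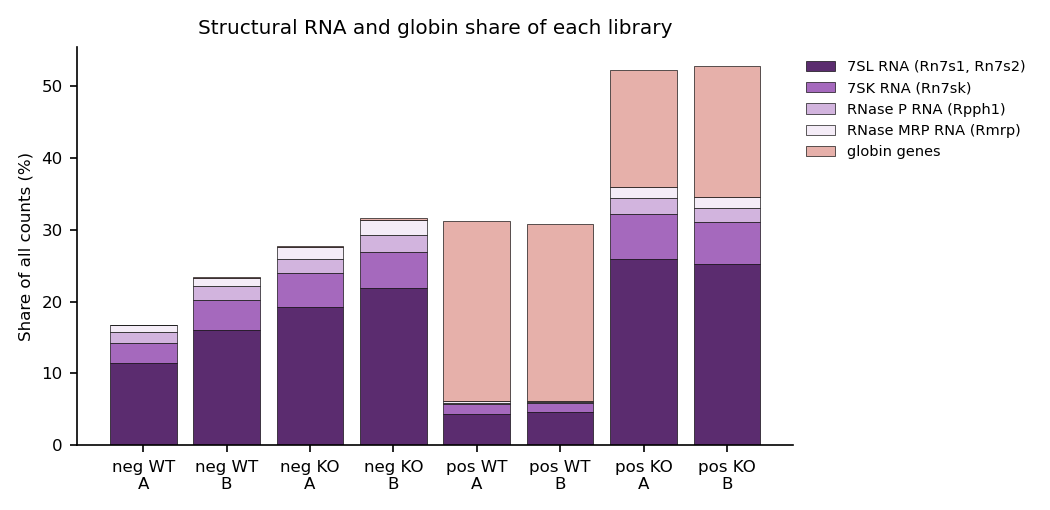
Share of all estimated counts (%, stacked bars, from 0) taken by the 7SL, 7SK, RNase P and RNase MRP RNAs and by globin genes in each of the 8 libraries, labelled by fraction, genotype and replicate letter. The structural RNAs took about 6% in the Ter119pos WT libraries (6.08% and 6.20%) and 16.7% or more in the other 6.

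Prmt5 loss changed more genes, and by more, in Ter119pos than in Ter119neg cells. Of 15566 genes tested, 6491 (41.7%) had a called interaction, meaning a Benjamini-Hochberg adjusted p under 0.05 in edgeR's quasi-likelihood test, 3001 of them positive and 3490 negative. The KO effect itself was called for 8430 genes (54.2%) in Ter119pos cells and for 2976 (19.1%) in Ter119neg cells. Its median size without sign was 0.81 on the log2 scale in Ter119pos cells and 0.30 in Ter119neg cells, while the signed medians were -0.04 and 0.01. The interaction had a median of -0.0048 and a median size of 0.80. Genes just inside the threshold (adjusted p of 0.04 to 0.05, 357 genes) had a median size of 0.83, and those just outside (0.05 to 0.06, 329 genes) 0.85. The KO libraries of both fractions came from the same 2 embryos, and mouse 4 gave a WT library of each. The main fit treats the 8 libraries as independent, so its p-values leave this pairing out. They rest on few animals, with a spread estimated in part across genes. In bulk fractions, fewer cells that express a gene and less RNA per cell cannot be told apart.

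Most called interactions belonged to genes with a KO effect in Ter119pos cells alone. Of the 6491, 4706 were of this kind, with 2037 higher and 2669 lower after Prmt5 loss. Another 429 had a KO effect called in Ter119neg cells alone (173 higher, 256 lower). In 755 the effect was called in both fractions in the same direction but differed in size, larger in Ter119pos cells for 710 and in Ter119neg cells for 45. In 361 it was called in both in opposite directions: 224 rose in Ter119neg KO and fell in Ter119pos KO, and 137 did the reverse. The remaining 240 had no call in either fraction (402 with the mouse as a block). A further 821 genes changed in the same direction in both fractions with no called interaction, and of 7532 genes called in 1 fraction only, 2397 had no called interaction, so that a call in 1 fraction alone does not show that the fractions differed.

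Other settings moved these counts. With total counts in place of TMM scaling, the median interaction shifted to -0.58 and the calls split into 1133 positive (17.5%) and 5339 negative, against 46.2% positive in the scaled fit. Other settings moved the balance the other way, to 52.1% positive with upper quartile factors, 54.4% with globin genes removed, and 56.2% to 57.5% when any 1 Ter119neg library was left out. Leaving out any 1 Ter119neg library cut the smaller classes: the 456 genes higher in both fractions became 240 without WT A, 248 without KO B and 284 without WT B. The 299 lower in both became 81 to 108, the 173 higher in Ter119neg alone became 61 to 83, and the 224 opposite genes that rose in Ter119neg KO became 68 to 85, over the 4 Ter119neg libraries left out in turn. Negative interaction calls fell to 2275 without Ter119neg KO A and 2305 without Ter119neg WT A. None of the called interactions that kept a call changed direction when any library was left out. With total counts, 12 of the genes named below lost their call with the direction kept: Tmem14c, Pcbp1, Prmt1, Bax, Bak1, Itga2b, Eng, Plvap, Pecam1, Polr1c, Ccr2 and Cpa3.

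**Figure D2:**
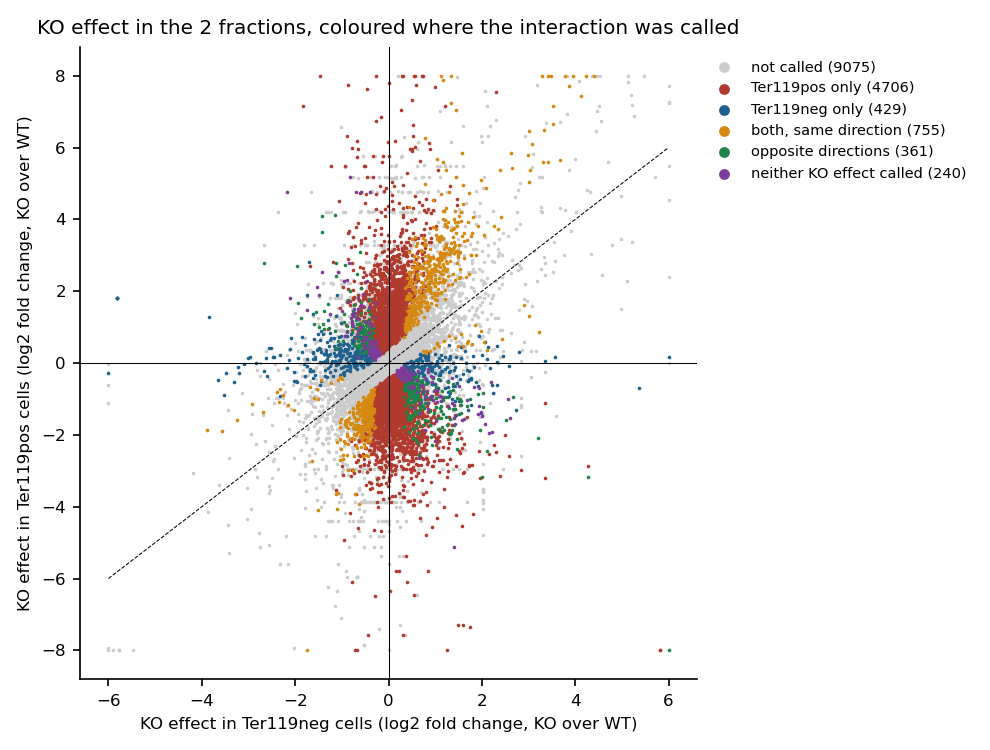
KO effect in Ter119neg cells (x axis) against the KO effect in Ter119pos cells (y axis), both log2 fold changes, 1 point per tested gene, coloured by class where the interaction was called, with values beyond 6 or 8 drawn at the edge. The dashed line marks equal effects, and the 4706 genes called in Ter119pos cells alone form the vertical band.

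Prmt5 itself checks the genotype labels. Its level was 52.3 and 51.8 CPM in Ter119neg WT, 4.51 and 4.26 in Ter119neg KO, 13.8 and 17.7 in Ter119pos WT and 3.64 and 4.92 in Ter119pos KO. It was low in all 4 KO libraries, with no overlap with WT in either fraction. The fall was 11.9-fold in Ter119neg and 3.72-fold in Ter119pos cells, giving a positive interaction of 1.67 (SE 0.24, adjusted p = 1.7e-04). The KO libraries of both fractions stood at about the same level, and the WT libraries of the fractions differed. Of 12 tested arginine methyltransferases and Prmt5 partners, 4 had a positive interaction (2 with the mouse as a block) and 1 a negative one, among them Prmt1, the main asymmetric methyltransferase, at 0.65. In the main fit these were 33.3% and 8.33%, beside 19.3% and 22.4% over all genes. The deleted gene Prmt5 is itself a member of this list, and its call is counted among the 4 positive ones. Prmt2 had 2.13 from levels of 0.180 to 2.59 CPM, with an adjusted p of 0.0954 in edgeR with the mouse as a block, and the negative value of Carm1 (-0.50) lost its call when any 1 of 6 libraries was left out.

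Replication-dependent histone genes were the one list of 31 in which every tested member had a called interaction. Their messengers end in a stem-loop in place of a poly(A) tail, they are made during DNA synthesis, and the total RNA libraries, with ribosomal RNA removed, could hold them. All 31 genes of this list were higher in Ter119pos KO, beside 24.8% of all tested genes, and all 31 interactions were positive. None of the 31 had a called effect in Ter119neg cells (0 by DESeq2 as well). Their median KO effect was -0.16 in Ter119neg and 2.07 in Ter119pos cells, with a median interaction of 2.15 (range 0.75 to 4.24). The structure is shown for 5 members because it is the known hallmark of this gene family. The sequences are from GENCODE M21 transcripts (GRCm38), 5′ to 3′ in DNA letters, with the 16 bases of the stem-loop in capitals. In these 5 annotated transcripts the stem-loop lies 57 to 454 bases before the end of the model. Elsewhere in the list this distance ran from 11 bases (Hist1h2ab) to 4884 bases (Hist1h1d).
Hist1h2ae: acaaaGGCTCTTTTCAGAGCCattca
Hist1h3e: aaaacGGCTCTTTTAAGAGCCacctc
Hist1h4c: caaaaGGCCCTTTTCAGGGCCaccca
Hist1h4i: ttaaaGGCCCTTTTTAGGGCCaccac
Hist2h2ac: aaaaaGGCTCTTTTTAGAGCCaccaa

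The motif searched for, on the transcript strand alone, was GGC, any base, CTTTT, any base, AG, any base and GCC. It was found in 23 of the 31 genes (74.2%) and in 45 of 21951 protein-coding genes in the annotation (0.205%). Of these 45 genes, 23 (51.1%) are in the list, so the counts given for the list do not cover every gene with the motif. Among the 23, the commonest form, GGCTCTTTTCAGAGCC, occurred in 15. The 8 without a match included Hist1h4a and Hist1h3g, and a transcript model that stops short would give the same result. The interactions of the 5 genes shown were 2.48 for Hist1h2ae, 2.67 for Hist1h3e, 2.49 for Hist1h4c, 2.05 for Hist1h4i and 2.40 for Hist2h2ac. These 5 were picked to show the forms of the loop, after their values were known.

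Hist1h4a, which encodes histone H4, stood at 257 and 400.1 CPM in Ter119neg WT, 302 and 359.8 in Ter119neg KO, 209 and 154 in Ter119pos WT and 1338 and 1260 in Ter119pos KO. Only the Ter119pos KO libraries were high, above every one of the other 6. Its interaction was 2.83 (SE 0.31, adjusted p = 3.8e-05). Hist1h3g, an H3 gene, stood at 109.8 and 143 CPM in Ter119neg WT, 93.7 and 122 in Ter119neg KO, 84.2 and 66.5 in Ter119pos WT and 465 and 375 in Ter119pos KO, again with no overlap, and its interaction was 2.71 (SE 0.27, adjusted p = 2.4e-05). Hist1h2ae and Hist1h4b followed with 2.48 and 2.77. The summed level of the 31 genes was 36607 and 41830 CPM in Ter119pos KO against 8563 to 13638 CPM in the other libraries. Near-identical copies share reads, so the counts of single histone genes are uncertain. With total counts 26 of the 31 were still called positive, and with the trend on transcript length removed 27 were. In Ter119neg KO, 4 of the 31 were called lower with total counts and 2 with that trend removed.

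The S phase genes that act beside histones did not share this direction. Of 50 genes of DNA replication, 18 (36%) had a negative interaction and 4 (8%) a positive one, beside 22.4% negative and 19.3% positive over all tested genes, with a median of -0.27. Clspn, which encodes the checkpoint adaptor Claspin, fell in both fractions, from 30.9 and 29.2 to 18.5 and 19 CPM in Ter119neg and from 156 and 144 to 30.6 and 27.3 CPM in Ter119pos cells. The WT and KO libraries did not overlap in either fraction, and the interaction was -1.69 (SE 0.15, adjusted p = 1.5e-05). Pola1 (DNA polymerase alpha), Dnmt1 (maintenance DNA methylation) and Rfc1 (clamp loader) also fell in both, with interactions of -1.26, -1.38 and -0.88. The 4 positive calls were clamp loader subunits Rfc2, Rfc4 and Rfc5 and the polymerase subunit Pold2, named here after their values were seen. The 18 became 11 without Ter119neg KO B, WT A or WT B, and the positive calls became 0 without Ter119pos KO B, 2 without Ter119pos WT A and 0 with total counts, where 32 were negative.

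Mitotic genes fell more in Ter119pos than in Ter119neg cells. Of 45 genes of G2 and mitosis, 40 had a negative interaction and none a positive one (0 at an unadjusted p under 0.05 by edgeR and 0 by DESeq2), beside 22.4% negative over all tested genes. In Ter119pos cells 43 fell (29.3% over all genes), and in Ter119neg cells 14 fell (9.55% over all genes), with medians of -1.35 and -0.25. The 14 became 7 to 9 when any 1 Ter119neg library was left out, and 26 with total counts. Cenpe, a kinetochore motor, stood at 43.1 and 48.8 CPM in Ter119neg WT, 40.9 and 41.9 in Ter119neg KO, 443 and 393 in Ter119pos WT and 80.4 and 81.8 in Ter119pos KO. The high libraries were the Ter119pos WT pair, and after Prmt5 loss the Ter119pos level stood nearer to that of the Ter119neg libraries. The interaction was -2.22 (SE 0.18, adjusted p = 9.0e-06). Cenpf, another kinetochore protein, went from 604 and 517 to 92 and 92.7 CPM in Ter119pos cells and from 43.5 and 48.6 to 32.7 and 35.1 CPM in Ter119neg cells, with an interaction of -2.16. Ckap2l and Kif23, a spindle protein and a motor of the dividing midzone, had -1.79 and -1.60. The summed level of the list was 17737 and 20173 CPM in Ter119pos WT, 4504 and 4700 CPM in Ter119pos KO, 2173 and 2235 CPM in Ter119neg WT and 1708 and 1744 CPM in Ter119neg KO.

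Genes of homologous recombination and the Fanconi pathway, which repair broken and crosslinked DNA and which the study's title names, moved in the same direction. Of 45 tested, 32 (71.1%, beside 22.4% over all genes) had a negative interaction and 2 (4.44%, beside 19.3%) a positive one. In Ter119pos cells 38 fell (29.3% over all genes) and in Ter119neg cells 13 did (9.55% over all genes), with medians of -0.98 and -0.24. The 13 became 6 without Ter119neg KO B and 24 with total counts. Brca1 stood at 29.6 and 31.1 CPM in Ter119neg WT, 25.3 and 25.8 in Ter119neg KO, 205 and 188 in Ter119pos WT and 54 and 52.5 in Ter119pos KO. The Ter119pos KO libraries lay below the WT pair and above all Ter119neg libraries, and the interaction was -1.64 (SE 0.15, adjusted p = 1.7e-05). Brca2, which loads the recombinase, fell in both fractions, 1.72-fold in Ter119neg and 4.26-fold in Ter119pos cells, with an interaction of -1.31 (SE 0.16, adjusted p = 6.2e-05). Fancm, a Fanconi helicase, and Rad50, a break sensor, had -1.35 and -1.16. The 32 became 21 without Ter119neg WT A, and the 2 positive calls became 1 without Ter119pos KO A and 0 with total counts.

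The TIP60 acetyltransferase complex, which opens chromatin at breaks, had calls in both directions. Of 18 genes, 7 (38.9%, beside 22.4% over all genes) had a negative interaction and 2 a positive one (11.1%, below the 19.3% over all genes). Brd8, its bromodomain subunit, stood at 35.4 and 38.1 CPM in Ter119neg WT, 43 and 41.8 in Ter119neg KO, 228 and 180.1 in Ter119pos WT and 57.1 and 51.8 in Ter119pos KO. The Ter119pos WT libraries were high and the other 6 lay at 57.1 CPM or less, and the interaction was -2.11 (SE 0.18, adjusted p = 1.4e-05). Epc1, Epc2 and Ep400, scaffold and motor subunits, had -1.34, -1.33 and -1.09. The catalytic subunit Kat5, named beside the rule for its role, had no called effect in either fraction, at 0.02 and -0.23. The 2 positive calls became 1 without Ter119pos KO B or Ter119pos WT A and 0 with total counts, where 11 were negative.

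Genes of the red cell membrane and skeleton fell mainly in Ter119pos cells. Of 26, 23 had a negative interaction (88.5%, beside 22.4% over all genes) and none a positive one (0 at an unadjusted p under 0.05 by edgeR and 0 by DESeq2). In Ter119pos KO 22 fell, beside 29.3% over all genes. In Ter119neg KO 5 rose and 3 fell, beside 9.57% and 9.55% over all genes. The 5 became 3 without Ter119neg KO B or WT B and 2 with total counts, and the 3 became 1 without KO A or WT B. The median KO effect was 0.22 in Ter119neg and -1.07 in Ter119pos cells. Sptb, which encodes beta spectrin of the membrane skeleton, stood at 56.4 and 53.7 CPM in Ter119neg WT, 69.7 and 57.6 in Ter119neg KO, 3950 and 3423 in Ter119pos WT and 1018 and 809 in Ter119pos KO. The Ter119neg KO libraries lay just above the WT pair with no call, and both Ter119pos KO libraries lay far below both Ter119pos WT libraries, 4.04-fold by the fit. The interaction was -2.22 (SE 0.25, adjusted p = 4.7e-05). The blood group gene Ermap had -2.11. Kel, which encodes the Kell blood group protein, moved in opposite directions, from 18.7 and 19.7 to 37.6 and 40.1 CPM in Ter119neg and from 1360 and 1177 to 676 and 622 CPM in Ter119pos cells. Genotypes did not overlap in either fraction, and the interaction was -1.99 (SE 0.21, adjusted p = 2.9e-05).

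Erythroid transcription factors showed fewer calls in the same direction. Of 20, 10 (50%) had a negative and 2 (10%) a positive interaction, beside 22.4% and 19.3% over all genes. In Ter119pos KO 11 fell against none in Ter119neg KO, beside 29.3% and 9.55% over all genes. Sox6, a repressor of embryonic globin, went from 698 and 562 to 177 and 167 CPM in Ter119pos cells while its Ter119neg libraries held 4.22 to 5.72 CPM. Its interaction was -2.05 (SE 0.23, adjusted p = 4.9e-05). Klf3 and Bcl11a, 2 further repressors, had -1.73 and -1.09. Foxo3, which drives late maturation, rose in Ter119neg and fell in Ter119pos KO, for an interaction of -1.33 (SE 0.19, adjusted p = 2.1e-04). Gata1, the lineage's main activator, had no called effect (0.13 and -0.23) and is named for its role. The 10 became 6 without Ter119neg KO A or WT B, and the 2 positive calls became 1 without Ter119pos KO A, WT A or WT B and 0 with total counts.

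Heme synthesis genes included 2 that moved in opposite directions. Of 20, 8 (40%) had a negative and 3 (15%) a positive interaction, beside 22.4% and 19.3% over all genes. Alas2, the first and rate-limiting erythroid step, stood at 5 and 4.25 CPM in Ter119neg WT, 12.5 and 15.3 in Ter119neg KO, 4013 and 3570 in Ter119pos WT and 2727 and 3414 in Ter119pos KO. It was higher in both Ter119neg KO libraries, and in Ter119pos cells the KO pair lay just below the WT pair with no call. The interaction was -1.89 (SE 0.27, adjusted p = 2.0e-04). Cpox, a middle step, rose in Ter119neg (0.55) and fell in Ter119pos KO (-0.90), with an interaction of -1.45 (SE 0.21, adjusted p = 2.1e-04). Fech, which inserts the iron, did likewise (0.62 and -0.61), with -1.23 (SE 0.22, adjusted p = 8.2e-04). Tmem14c, a mitochondrial carrier of heme precursors, had a positive value of 0.83. The 8 became 4 without Ter119neg KO B and 5 without WT A, and the 3 became 1 without Ter119pos KO B and 0 with total counts, where 13 were negative.

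All 3 embryonic globin genes tested rose in Ter119pos KO. Hbb-y, an embryonic beta-like globin, stood at 12.1 and 23.3 CPM in Ter119neg WT, 21.5 and 31.4 in Ter119neg KO, 1049 and 2498 in Ter119pos WT and 11646 and 14756 in Ter119pos KO. Both Ter119pos KO libraries were above both WT libraries, which themselves differed by more than 2-fold, and the interaction was 2.32 (SE 0.54, adjusted p = 0.00484). Hbb-bh1 and Hba-x, the other embryonic chains tested, had 1.83 and 2.09, so that all 3 positive calls among 9 globin genes were embryonic. Hbq1b, a theta globin, was higher in Ter119neg KO alone, from 0.0973 and 0.167 to 0.55 and 0.638 CPM, while its Ter119pos libraries held 47.6 to 65.8 CPM. Its interaction was -2.32 (SE 0.44, adjusted p = 0.00121). The other negative call was Hba-a1, an adult alpha globin named after its values were seen, at -1.12 (adjusted p = 0.0446 in edgeR). The adult genes Hba-a2, Hbb-bs and Hbb-bt had -0.97, -1.06 and -0.77 with no call. Of the 9 globin genes, 6 were called higher in Ter119neg KO (9.57% over all genes). None was called lower in Ter119pos KO (0 by DESeq2 as well), but 6 were with total counts. The list's 2 negative calls became 5 with the mouse as a block, 5 with total counts, 5 without Ter119neg KO A and 1 without any 1 of 5 other libraries.

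Iron handling genes divided evenly, with 6 positive and 6 negative calls of 20 (30% each, beside 19.3% and 22.4% over all genes). Ftl1, the ferritin light chain that stores iron, went from 2646 and 3036 to 11089 and 16158 CPM in Ter119pos cells and held 423 to 489 CPM in the Ter119neg libraries. Its interaction was 2.34 (SE 0.30, adjusted p = 9.8e-05). Slc25a37, which carries iron into mitochondria, went the other way, from 8903 and 7582 to 3444 and 2809 CPM in Ter119pos cells, with an interaction of -1.94 (SE 0.26, adjusted p = 1.2e-04). Slc11a2, the endosomal iron transporter, had -1.18, and Pcbp1, an iron chaperone, 0.84. With total counts the split was 1 positive and 8 negative, and leaving out any 1 Ter119neg library cut the negative calls to 2. Among 37 genes of maturation and organelle clearance, 16 were negative (43.2%) and 4 positive (10.8%), from Cited2, a transcription cofactor, at 2.57 to Diap3, a formin, at -1.58. With total counts these were 27 and 2.

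**Figure D3:**
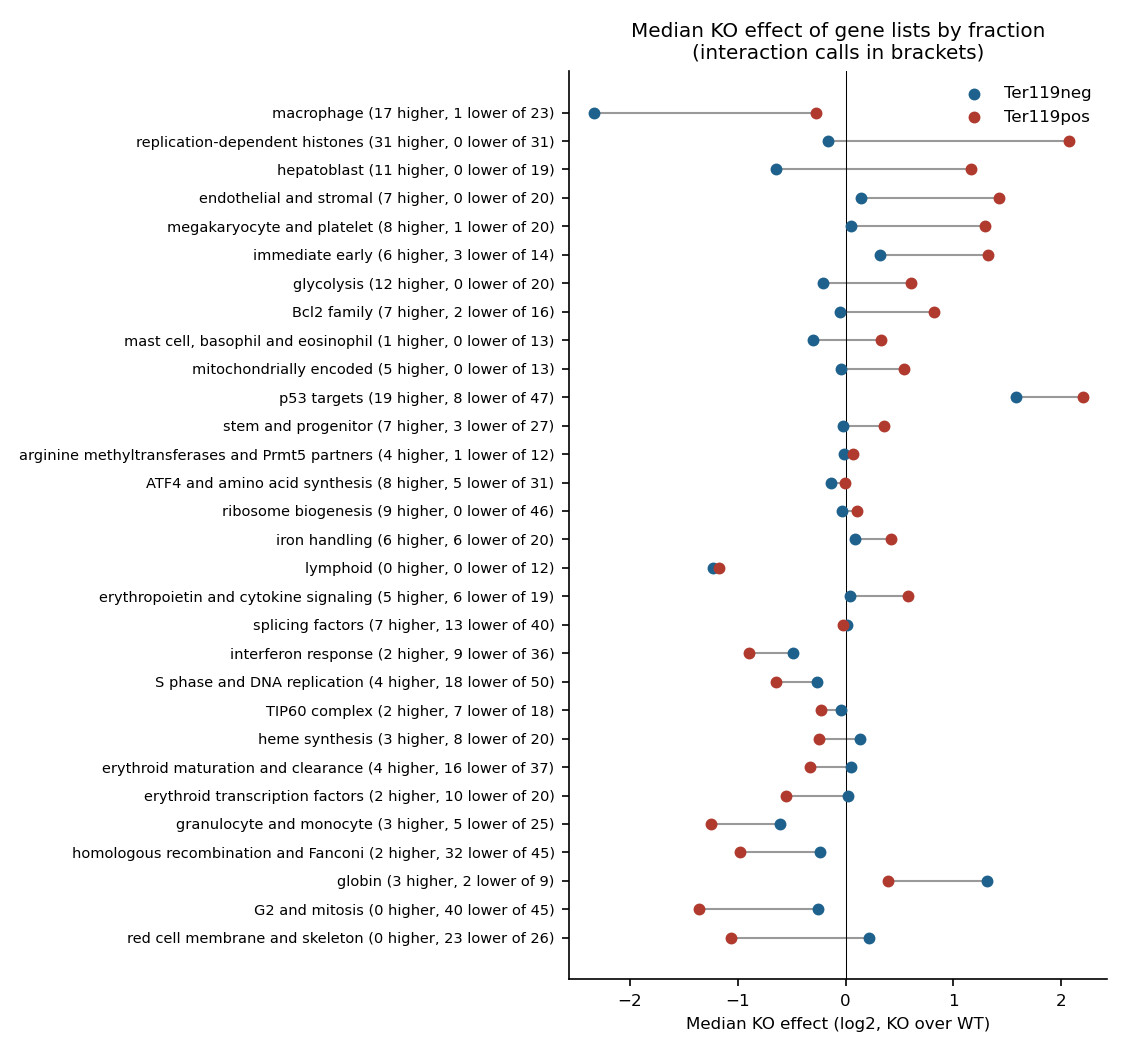
Median KO effect (log2, KO over WT) of each gene list in Ter119neg (blue) and Ter119pos (red) cells, with the number of members with a called positive or negative interaction in brackets; a line joins the medians. Macrophage genes lie at -2.34 and -0.27, histones at -0.16 and 2.07, and p53 targets lie at 1.58 and 2.20.

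Some genes fell in Ter119neg KO and rose in Ter119pos KO. Hmox1 (ENSMUSG00000005413, chromosome 8, 75093621 to 75100589, GRCm38) encodes heme oxygenase, which breaks heme down. It stood at 14.9 and 20.5 CPM in Ter119neg WT, 5.47 and 7.71 in Ter119neg KO, 15.7 and 14 in Ter119pos WT and 178 and 326 in Ter119pos KO. It was lower in both Ter119neg KO libraries and far higher in both Ter119pos KO libraries, with no overlap. The KO effect was -1.42 in Ter119neg and 4.08 in Ter119pos cells, 2.68-fold down and 17-fold up, and the interaction was 5.50 (SE 0.38, adjusted p = 5.0e-06).

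The common beta chain of the IL-3, IL-5 and GM-CSF receptors showed the same reversal. Csf2rb (ENSMUSG00000071713, chromosome 15, 78325752 to 78353847) stood at 29 and 38.7 CPM in Ter119neg WT, 11.1 and 14.2 in Ter119neg KO, 6.55 and 5.77 in Ter119pos WT and 85 and 70.6 in Ter119pos KO. Its interaction was 5.08 (SE 0.25, adjusted p = 6.0e-07). Csf2rb2 (ENSMUSG00000071714, chromosome 15, 78282507 to 78305721), the neighbouring IL-3 specific copy, stood at 3.21 and 4.08 CPM in Ter119neg WT, 1.4 and 1.86 in Ter119neg KO, 3.01 and 2.53 in Ter119pos WT and 50.8 and 45.3 in Ter119pos KO, with an interaction of 5.27 (SE 0.26, adjusted p = 6.0e-07). In both genes the KO libraries lay below WT in Ter119neg cells and above every other library in Ter119pos cells. The copies are close relatives, so reads could be split between them by estimate. Ahnak, a large scaffold protein, also reversed, at -1.13 and 2.78, with 3.91 (SE 0.29, adjusted p = 5.9e-06).

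Other receptors and kinases of erythropoietin and cytokine signaling divided, with 5 positive and 6 negative calls of 19. These were 26.3% and 31.6%, beside 19.3% and 22.4% over all genes, and the counts were 3 and 9 with total counts. Jak2, the kinase of the erythropoietin receptor, fell from 214 and 192 to 51.7 and 52.6 CPM in Ter119pos cells and from 29.9 and 32.1 to 23.1 and 24.8 CPM in Ter119neg cells, with an interaction of -1.59 (SE 0.16, adjusted p = 2.4e-05). Lyn, a Src family kinase, rose in Ter119pos KO alone, with 1.86. Opposite genes that rose in Ter119neg KO included Apol8, an apolipoprotein L gene, which went from 1.58 and 1.22 to 7.26 and 10.5 CPM in Ter119neg and from 212 and 202 to 113 and 101 CPM in Ter119pos cells. Its interaction was -3.61 (SE 0.25, adjusted p = 5.0e-06). The 3 others that the naming rule picked in this class, RP24-285A14.1, RP23-34P11.2 and RP23-173N16.5, are lincRNA models with values of -3.83, -3.29 and -3.28.

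Immediate early genes, which answer signals within minutes, held some of the largest gains on the Ter119pos side. Of 14, 6 had a positive (42.9%, beside 19.3% over all genes) and 3 a negative interaction (21.4%, near the 22.4% over all genes). Fosb, Egr2 and Egr3 did not pass the filter on low counts. Zfp36, which speeds decay of AU-rich messengers, stood at 3.37 and 3.01 CPM in Ter119neg WT, 2.69 and 3.01 in Ter119neg KO, 1.38 and 1.82 in Ter119pos WT and 28.3 and 31.4 in Ter119pos KO. The Ter119pos KO pair alone was high, and the interaction was 4.37 (SE 0.25, adjusted p = 2.2e-06). Junb, an AP-1 subunit, stood at 8.52 and 9.11 CPM in Ter119neg WT, 9.87 and 11.9 in Ter119neg KO, 4.27 and 3.18 in Ter119pos WT and 58.7 and 89.4 in Ter119pos KO, with 4.00 (SE 0.29, adjusted p = 5.5e-06). Jun rose in both fractions but more in Ter119pos KO (0.78 and 4.97), with 4.19 (SE 0.40, adjusted p = 1.9e-05). Btg2, an antiproliferative p53 target, did the reverse, rising from 5.06 and 4.53 to 11.2 and 13.7 CPM in Ter119neg cells while the Ter119pos libraries overlapped at 228 to 255 CPM, with -1.36 (SE 0.20, adjusted p = 2.1e-04).

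Spry1 (Sprouty 1, a brake on receptor kinases, ENSMUSG00000037211, chromosome 3, 37639947 to 37644598) was among the largest changes seen in Ter119pos cells alone. It stood at 1.15 and 1.6 CPM in Ter119neg WT, 1.81 and 2.05 in Ter119neg KO, 0.661 and 0.471 in Ter119pos WT and 37.3 and 31 in Ter119pos KO. Its interaction was 5.40 (SE 0.35, adjusted p = 3.4e-06). The adjoining gene model RP23-382L1.4, downstream on the same strand, gave 5.26, and it lost its call without Ter119neg WT B. Irf2bpl, a transcription cofactor, went from 0.12 and 0.118 to 3.64 and 8.37 CPM in Ter119pos cells, with 5.74 (SE 0.72, adjusted p = 8.2e-05). In the other direction Cadm3, a cell adhesion gene, fell from 109 and 86.9 to 7.7 and 7.25 CPM in Ter119pos cells and was at 0.372 CPM or less in every Ter119neg library, with -3.84 (SE 0.51, adjusted p = 1.2e-04). Ryr2, a calcium channel, had -4.97.

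Most called glycolysis genes rose in Ter119pos KO. Of 20, 12 had a positive interaction and none a negative one (0 at an unadjusted p under 0.05 by edgeR and 0 by DESeq2), and 11 rose in Ter119pos KO while 3 fell in Ter119neg KO (1 without Ter119neg KO A or WT B). Over all tested genes 19.3% had a positive interaction, 24.8% rose in Ter119pos KO and 9.55% fell in Ter119neg KO. Pkm, the pyruvate kinase of dividing cells, stood at 305 and 265 CPM in Ter119neg WT, 254 and 241 in Ter119neg KO, 39.7 and 48 in Ter119pos WT and 238 and 303 in Ter119pos KO. The Ter119pos WT pair alone was low, and after Prmt5 loss the Ter119pos level overlapped the Ter119neg libraries. Its interaction was 2.83 (SE 0.22, adjusted p = 8.8e-06). Slc2a3, a glucose transporter, stood at 32.6 and 29.3 CPM in Ter119neg WT, 33.7 and 29.5 in Ter119neg KO, 22.5 and 28.4 in Ter119pos WT and 222 and 211 in Ter119pos KO, with 3.06 (SE 0.19, adjusted p = 3.4e-06), and here the Ter119pos KO level passed all others. Aldoa and Gpi1, 2 enzymes of the pathway, had 1.86 and 1.40. The direction of the list was lost with total counts, where 5 were positive and 4 negative, and 1 call was negative without Ter119pos KO B.

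**Figure D4:**
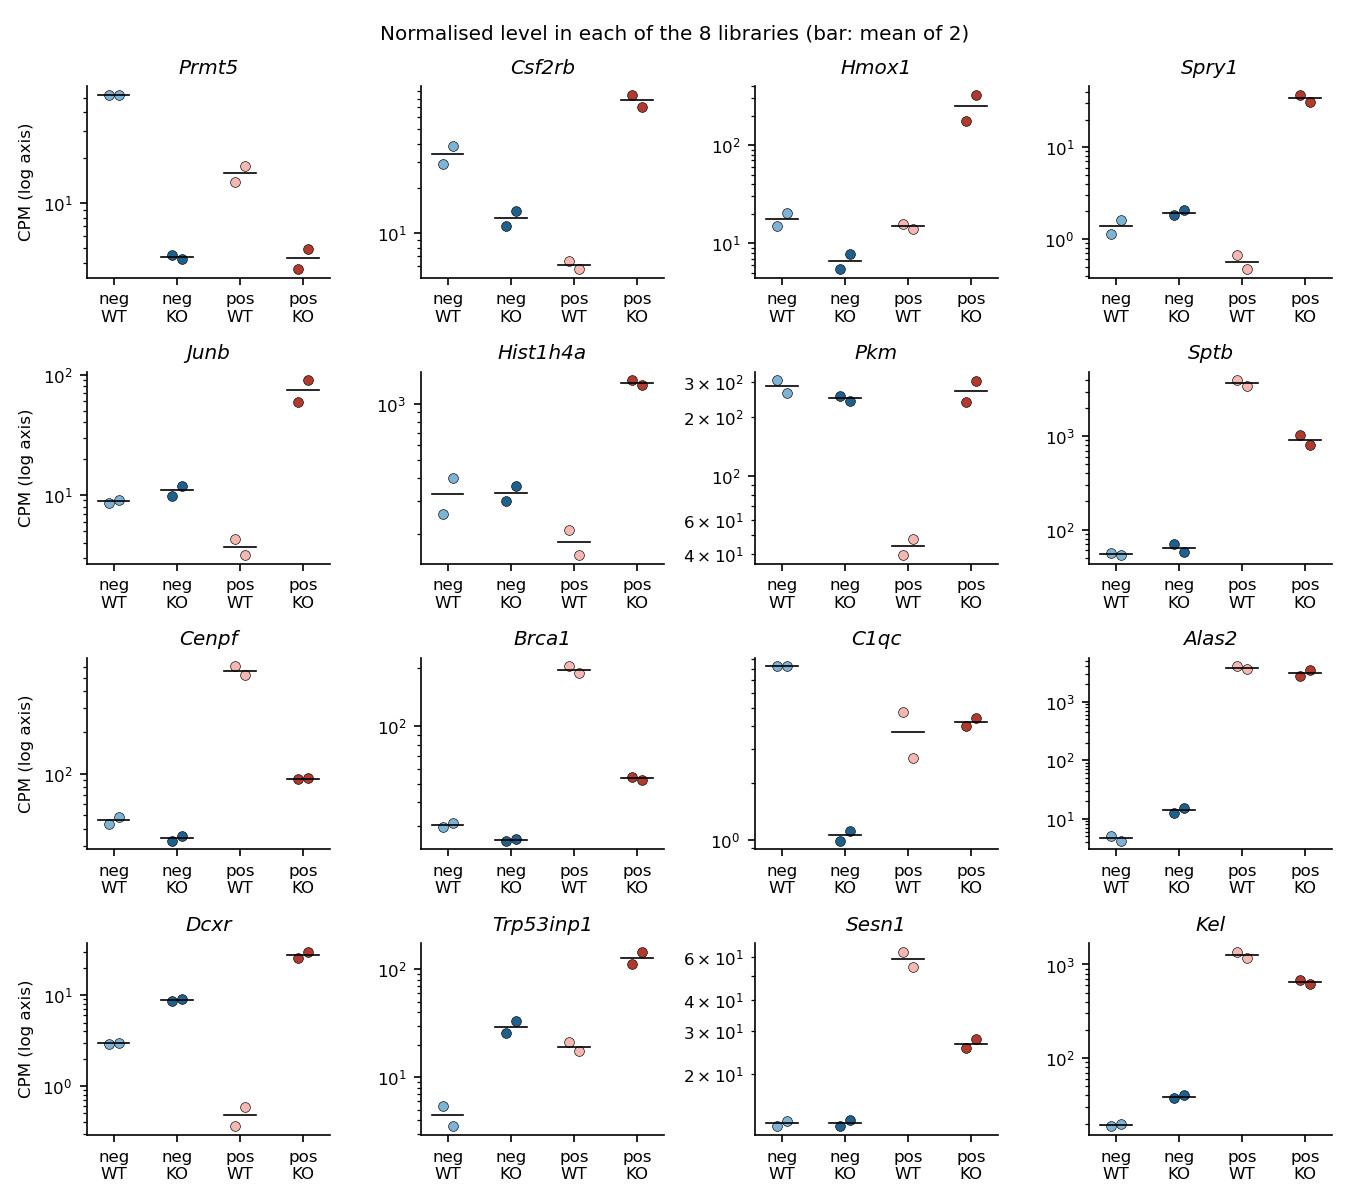
Level (CPM, log axis, a separate range per panel) of 16 genes in each of the 8 libraries, 1 point per library with a bar at the mean of 2, ordered Ter119neg WT, Ter119neg KO, Ter119pos WT, Ter119pos KO. Csf2rb and Hmox1 fall in Ter119neg KO and rise in Ter119pos KO; Brca1, Cenpf and Sptb are highest in Ter119pos WT.

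Targets of p53 rose in both fractions, and part of them rose more in Ter119pos cells. Of 47 tested, 37 were higher in Ter119neg KO and 34 in Ter119pos KO, with medians of 1.58 and 2.20. Over all tested genes 9.57% were higher in Ter119neg KO and 24.8% in Ter119pos KO. Higher in both were 32, of which 18 had a positive interaction, 1 a negative one and 13 no call. Over the list 19 were positive and 8 negative (15 and 13 with total counts). In the main fit these were 40.4% and 17.0%, beside 19.3% and 22.4% over all genes. Dcxr, a sugar reductase and p53 target, stood at 2.92 and 2.96 CPM in Ter119neg WT, 8.55 and 9.07 in Ter119neg KO, 0.361 and 0.588 in Ter119pos WT and 25.3 and 29.9 in Ter119pos KO. In each fraction KO lay above WT without overlap, from a lower WT level in Ter119pos cells, and the interaction was 4.26 (SE 0.29, adjusted p = 4.9e-06). Perp, a p53 effector at the membrane, and Rps27l, a ribosomal protein relative, had 3.60 and 1.86.

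Some p53 targets did not follow. Sesn1, an inhibitor of mTORC1 signaling, stood at 12.4 and 13 CPM in Ter119neg WT, 12.3 and 13.1 in Ter119neg KO, 62.7 and 54.3 in Ter119pos WT and 25.5 and 27.8 in Ter119pos KO. Its Ter119neg libraries overlapped, its Ter119pos KO pair lay below WT, and the interaction was -1.14 (SE 0.16, adjusted p = 1.6e-04). Trp53inp1, which promotes p53 driven death, rose in both fractions, from 5.41 and 3.53 to 25.5 and 32.9 CPM in Ter119neg and from 21 and 17.4 to 110.1 and 144 CPM in Ter119pos cells. Its effects were 2.70 and 2.73, and the 95% interval of the interaction ran from -0.60 to 0.65. Pnp2, a purine enzyme gene, had effects of 2.84 and 2.66 with an interval of -0.77 to 0.40. Sesn2 and Ddit4, stress genes that the ATF4 list also holds, rose in both and more in Ter119pos KO, with 1.57 and 3.02. Of the 31 genes of ATF4 and amino acid synthesis, 8 were positive (25.8%) and 5 negative (16.1%), near the 19.3% and 22.4% over all genes. With total counts they were 5 and 10, and the negative calls became 2 or 3 when any 1 Ter119neg library or Ter119pos WT A was left out.

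In the Bcl2 family, which sets the threshold of cell death, 7 of 16 were positive and 2 negative. These were 43.8% and 12.5%, beside 19.3% and 22.4% over all genes. Bax, a killer protein and p53 target, rose in both fractions, from 19 and 16.9 to 37.8 and 42.6 CPM and from 13 and 14.1 to 65.3 and 66.3 CPM, with 1.12 (SE 0.16, adjusted p = 1.7e-04). Bcl2l1, the survival gene of late erythroid cells, fell in Ter119pos KO alone, from 882 and 753 to 407 and 424 CPM, with -1.14 (SE 0.21, adjusted p = 0.00106). Bak1 and Bad, 2 further death genes, had 1.14 and 1.53. With total counts the counts were 3 and 4, and Bax and Bak1 lost their calls at 0.55 each. The 2 negative calls became 1 without Ter119neg KO B or WT B.

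Genes called higher in both fractions with the largest gap were Anxa8 (an annexin) and Cda (cytidine deaminase), both at 0 in the 2 Ter119pos WT libraries. Against a floor of 3 counts over that group, Anxa8 was at least 274-fold and Cda at least 64.9-fold higher in Ter119pos KO. Anxa8 stood at 0.292 and 0 CPM in Ter119neg WT and 2.45 and 3.64 CPM in Ter119neg KO. Its interaction lost the call without Ter119neg WT A and with the mouse as a block, where the adjusted p in edgeR was 1. Fam212b and Notch3, a signaling receptor, had the larger effect in Ter119neg cells, 3.22 against 0.87 and 2.42 against 0.68. Lower in both and more so in Ter119pos KO was Aim2, a DNA sensor, at -0.64 and -3.93. Its annotated span overlaps that of Cadm3 on the other strand. Taf15 and Rgl1 fell in both with no called interaction, at -1.48 and -1.62 and at -1.52 and -1.46.

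Most macrophage genes fell in Ter119neg KO. Fetal liver macrophages hold the islands in which red cells mature. Of 23 tested, 21 fell in Ter119neg KO and 5 fell and 2 rose in Ter119pos KO, with 17 positive interactions and 1 negative, Slc40a1, which was not called with the mouse as a block or without any 1 of 7 libraries. Over all tested genes 9.55% fell in Ter119neg KO, 29.3% fell in Ter119pos KO and 19.3% had a positive interaction. The 5 that fell in Ter119pos KO became 2 without Ter119pos WT A, 3 without any 1 Ter119neg library or Ter119pos KO A, 8 without Ter119pos WT B and 17 with total counts, where 16 interactions were positive. The 2 that rose became 4 without Ter119pos WT A and 1 without Ter119pos KO B or WT B. The medians were -2.34 and -0.27. C1qc, a complement subunit and macrophage marker, stood at 8.27 and 8.25 CPM in Ter119neg WT, 0.99 and 1.12 in Ter119neg KO, 4.75 and 2.71 in Ter119pos WT and 3.99 and 4.4 in Ter119pos KO. Ter119neg KO libraries lay below WT without overlap, and the Ter119pos libraries overlapped. Its interaction was 3.13 (SE 0.35, adjusted p = 4.4e-05). C1qb, C1qa and the lysosomal protease gene Lgmn had 2.97, 3.16 and 2.66. Summed without Hmox1 and Slc40a1, which red cell precursors also express and which were set aside after their values were seen, the list stood at 124.1 to 157.7 CPM in Ter119neg KO, 364.7 to 428.7 CPM in Ter119neg WT, 97.4 to 126.9 CPM in Ter119pos KO and 94.3 to 153.5 CPM in Ter119pos WT. Cd163 did not pass the filter on low counts. Whether the share of macrophages differed was not tested. Hmox1 and the beta chain genes that fell in Ter119neg KO moved with this list there, and their part in it was not tested.

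Other genes seen in Ter119neg cells alone were Dnaja4, a heat shock cochaperone, at 2.63 and 1.79 CPM in Ter119neg WT, 9.9 and 12.4 in Ter119neg KO, 95.8 and 92.3 in Ter119pos WT and 88.8 and 102 in Ter119pos KO. It was higher in Ter119neg KO and did not differ beyond its spread in Ter119pos cells, with -2.30 (SE 0.23, adjusted p = 2.4e-05). Usp44 and Wfdc3 had -2.23 and -2.50, the latter with levels up to 0.357 CPM in Ter119neg cells, an adjusted p of 0.0719 in edgeR with the mouse as a block and no call without Ter119neg WT A. The U3 copies Rnu3b4 and Rnu3b2 carry identical values, as reads were split between them, and had 7.62 each. Their Ter119neg WT libraries were at 20.4 and 138 CPM and their Ter119neg KO libraries at 2.83 and 0 CPM. In Ter119pos cells the WT libraries were at 336 and 308 CPM and the KO libraries at 868 and 1391 CPM. That KO effect of 1.81 was not called (adjusted p = 0.0695 in edgeR), but it is part of the interaction value.

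Markers of other cells in the liver also differed between fractions. Of 19 hepatoblast genes, 11 had a positive interaction (57.9%, beside 19.3% over all genes) and none a negative one (0 at an unadjusted p under 0.05 by edgeR and 0 by DESeq2). In Ter119pos KO 7 rose (24.8% over all genes), while 3 fell in Ter119neg KO (9.55% over all genes). These fraction counts were not stable. The 7 ran from 1 (without Ter119pos WT B) and 2 or 3 (without any other 1 Ter119pos library) to 13 (without either Ter119neg KO library), and was 1 with total counts. The 3 ran from 0 or 1 (without Ter119neg KO B, WT A or any 1 Ter119pos library) to 8 (without Ter119neg WT B) and 10 (without KO A), and was 0 with DESeq2 and 12 with total counts. Afp, the fetal albumin relative, went from 194 and 109 to 108 and 53.3 CPM and from 16.1 and 12.8 to 25.1 and 35.5 CPM, with 1.98 (SE 0.46, adjusted p = 0.0045). The list summed to 39.7 and 55.1 CPM in Ter119pos WT, 70.8 and 104 CPM in Ter119pos KO, 343 and 555 CPM in Ter119neg WT and 168 and 332 CPM in Ter119neg KO. The 11 became 7 without Ter119pos KO A or WT A, 5 without KO B and 4 without WT B, and 7 with total counts.

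Of 20 megakaryocyte genes 8 were positive and 1 negative (3 with the mouse as a block, 2 without Ter119neg KO B, and 5 positive and 4 negative with total counts). In the main fit these were 40% positive and 5% negative, beside 19.3% and 22.4% over all genes. Plek, a platelet kinase substrate, went from 3.97 and 4.41 to 18.3 and 28.8 CPM in Ter119pos cells and held 36.6 to 39.7 CPM in the Ter119neg libraries, with 2.46 (SE 0.26, adjusted p = 3.0e-05). Itgb3 and Pf4, platelet adhesion and granule genes, had 2.16 and 1.75. Itga2b moved in opposite directions, at -0.56 and 0.66, with 1.21. The list summed to 534 and 578 CPM in Ter119pos WT and 633 and 678 CPM in Ter119pos KO.

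Of 20 endothelial and stromal genes 7 were positive (35%, beside 19.3% over all genes) and none negative (0 at an unadjusted p under 0.05 by edgeR and 0 by DESeq2). With total counts 3 were positive. Tek, the angiopoietin receptor, was at 3.46 and 2.72 CPM in Ter119neg WT, 5.66 and 5.05 in Ter119neg KO, 0.12 and 0.235 in Ter119pos WT and 14.7 and 13.6 in Ter119pos KO. It was high in Ter119pos KO alone, with 5.49 (SE 0.39, adjusted p = 5.2e-06), while its list partners Cdh5 and Kdr, named for their role as endothelial markers, had no called interaction. Cdh5 fell in both fractions (-2.18 in Ter119neg and -1.45 in Ter119pos KO), and Kdr had no called effect in either (-0.98 in Ter119neg KO). Eng and Plvap had 1.30 and 1.82, and Pecam1 moved in opposite directions with 1.43. The list summed to 12.0 and 16.8 CPM in Ter119pos WT and 46.3 and 67.8 CPM in Ter119pos KO. Of 27 stem and progenitor genes, 7 were positive (25.9%, near the 19.3% over all genes) and 3 negative (11.1%). Spi1 (PU.1, a driver of myeloid fate) went from 2.22 and 1.65 to 9.94 and 10.4 CPM in Ter119pos cells and held 20.9 to 26.6 CPM in the Ter119neg libraries, with 2.56 (SE 0.24, adjusted p = 1.7e-05). The 7 became 4 without Ter119pos KO B and 3 with total counts (with 5 negative), and the 3 became 1 without Ter119neg KO A, WT A or WT B.

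Granulocyte and monocyte genes gave 3 positive and 5 negative calls of 25 (12% and 20%, below the 19.3% and 22.4% over all genes), 5 and 2 with the mouse as a block, and 2 and 11 with total counts. Cebpa, a myeloid regulator, had 2.41 and Ccr2, a monocyte receptor, 1.45, which lost its call without any 1 of 3 Ter119pos libraries, all but WT A. Gfi1 had -2.07, with an adjusted p of 0.0562 in edgeR with the mouse as a block. The 5 negative calls became 0 without Ter119pos WT A, 1 without Ter119neg KO B or Ter119pos KO A and 3 without either Ter119neg WT library, and the 3 positive ones became 1 without Ter119pos KO B and 5 without WT A. The list summed to 110 and 213 CPM in Ter119pos WT and 40.0 and 99.0 CPM in Ter119pos KO. None of 12 lymphoid genes had a called interaction by edgeR or DESeq2, with 2 negative at an unadjusted p under 0.05. In the 13 mast cell, basophil and eosinophil genes 1 did (2 with the mouse as a block), Cpa3, a mast cell protease, at 1.71. What part these cells had in the other lists was not tested.

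Interferon response genes gave 9 negative and 2 positive calls of 36. The negative share of 25% lies near the 22.4% over all genes, and the positive share was 5.56%, beside 19.3% over all genes. Eif2ak2, the double-stranded RNA kinase, went from 55.7 and 29.1 to 10.8 and 13.3 CPM in Ter119pos cells. Mouse 5 (WT A) was the higher of the WT pair, and the interaction was -1.68 (SE 0.33, adjusted p = 0.00159). Oasl2 moved in opposite directions, at -1.87 and 1.27, with 3.13 (SE 0.47, adjusted p = 2.6e-04). The list summed to 527 CPM in that library and 257 CPM in the other WT library. Without it 7 were positive, and with the mouse as a block 8 were. The 9 became 5 without Ter119neg KO B or WT A.

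Of 40 splicing factor genes, 7 were positive (17.5%, beside 19.3% over all genes) and 13 negative (32.5%, beside 22.4%). The kinds named here were read from the calls and not tested. The 7 encode proteins of the spliceosomal snRNPs, such as Snrpd2, an Sm protein, at 48.7 and 44.9 CPM in Ter119neg WT, 48.9 and 53.7 in Ter119neg KO, 28.3 and 31.8 in Ter119pos WT and 108 and 121 in Ter119pos KO, with 1.80 (SE 0.16, adjusted p = 1.5e-05). The negative ones were mostly SR proteins and hnRNPs, such as Hnrnpm at -1.11 and Srsf11, which moved in opposite directions (0.46 and -0.52, interaction -0.98). Snrnp70 and Prpf3, also of the snRNPs, were among the negative calls and are named after their values were seen. The 13 became 6 or 7 without Ter119neg KO A, KO B or WT B, and with total counts the split was 2 positive and 20 negative.

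Ribosome biogenesis gave 9 positive calls of 46 and no negative one (1 at an unadjusted p under 0.05 by edgeR and 0 by DESeq2), a positive share of 19.6% beside 19.3% over all genes. Polr1c, a shared subunit of RNA polymerases I and III, had 1.16, and Nhp2 and Nop10, which bind H/ACA RNAs, had 1.62 and 1.55. With the mouse as a block 8 were positive and 9 negative, with total counts 2 and 9, so no direction is given for this list. The negative calls were 1 without Ter119pos KO A and 2 without WT A. Of 13 mitochondrially encoded genes, 5 were positive (38.5%, beside 19.3% over all genes) and none negative (0 at an unadjusted p under 0.05 by edgeR and 0 by DESeq2). They were led by mt-Co3 (cytochrome oxidase) at 1.51. The count was 10 with the mouse as a block and 1 with total counts or with the length trend removed, and it ran from 2 (without Ter119pos KO B) and 3 (without WT A) to 8 (without Ter119neg WT A) and 10 (without Ter119pos KO A).

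Transcript length and gene type went with the interaction. Over 12816 protein-coding genes the rank correlation of the longest annotated transcript with the interaction was -0.303, and it was -0.286 with the KO effect in Ter119pos cells and -0.0079 with that in Ter119neg cells. This is a description across genes within the same libraries. The shortest eighth of genes (201 to 1577 bases) had a median interaction of 0.90, with 49.6% positive and 5.24% negative calls. The longest eighth (6368 bases and up) had -0.37, with 8.49% positive and 41.2% negative. With the length trend removed, 5961 genes were called, of which 5423 were shared with the 6491 in the same direction and 2 in the opposite one. Among genes called in Ter119pos cells alone with a called interaction, protein-coding genes higher in KO had a median transcript of 2117 bases and those lower 4561 bases. Without a called interaction these medians were 3017 and 3806 bases.

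**Figure D5:**
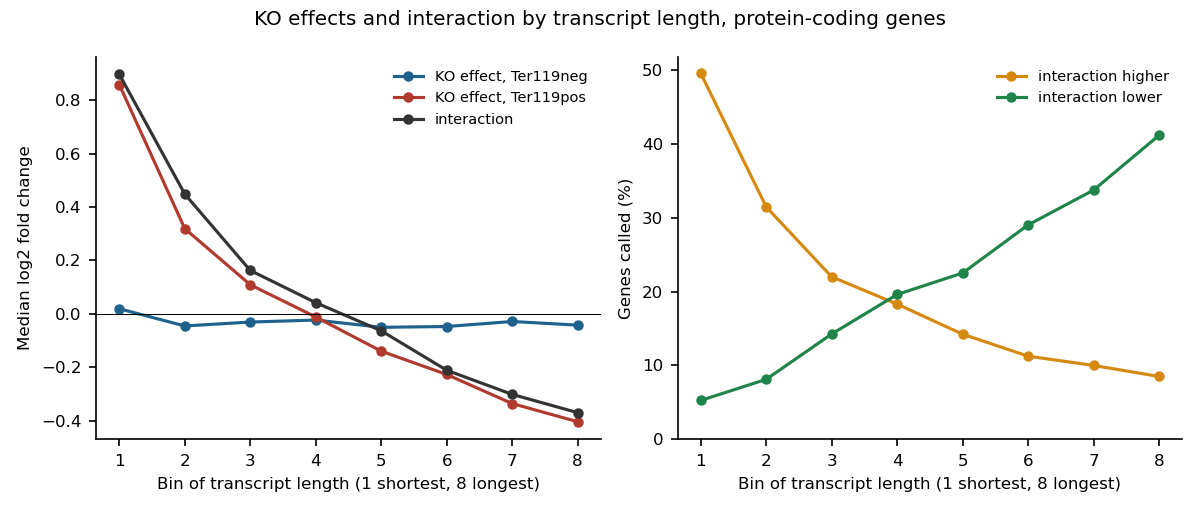
Left, median KO effect in each fraction and median interaction (log2) of protein-coding genes in 8 bins of transcript length, from shortest to longest. Right, percent of genes in each bin with a called positive or negative interaction, from 49.6% positive in the shortest to 41.2% negative in the longest bin.

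Small noncoding RNAs lay at the positive end. Over all tested genes 19.3% had a positive and 22.4% a negative interaction. Of 47 snRNA genes 41 had a positive interaction and none a negative one, with a median KO effect of 1.38 in Ter119neg and 3.23 in Ter119pos cells. Of 132 snoRNA genes 82 were positive and 1 negative, and of 17 scaRNA genes, which guide modification of snRNAs, 12 were positive. Intronic and untested models lay at the negative end: 46 of 81 sense intronic models were negative and 1 positive, and 242 of 551 TEC models (transcripts still to be experimentally checked) were negative and 8 positive. Small RNA genes occur in near-identical copies, and their counts are estimates. Whether the difference in structural RNA share between libraries had a part in these results was not tested.

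The embryos differed in sex as well. Xist stood at 372 and 462 CPM in the 2 libraries of mouse 2 and at 1.80 CPM or less in the other 6, and the Y-linked gene Uty was at 0 in those 2 libraries. Xist had no called interaction at -1.80, or -2.14 with a call in edgeR with the mouse as a block.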

How the data were processed

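RNA-seq of 8 sorted fetal liver libraries (2 per group) was taken from a table of expected counts per gene that the authors deposited. Per the submitters' processing notes, STAR 2.5.3 and RSEM were used with GRCm38 (mm10), and the labels' protocols give a stranded total RNA kit with ribosomal RNA removal. Expected counts were rounded. Of 45706 genes, 15566 passed edgeR's filterByExpr. edgeR 4.0.16 (R 4.3.3) fitted 1 mean per group over all 8 libraries, with TMM scaling, quasi-likelihood F tests and Benjamini-Hochberg adjustment, called under 0.05. CPM use the TMM-scaled totals. SE values were derived from the F statistic. Total counts limit the precision of low genes, and p-values cover the spread between these libraries only. The script was tested on simulated counts.

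The comparison and the gene lists were chosen with earlier results of these data known. Named genes are Prmt5, the 4 largest interactions per 1-fraction or opposite class (highest group mean at least 5 CPM; 2 per direction for effects in both), the 3 largest shared effects per direction with an unadjusted interaction p of at least 0.5, and up to 4 members per list with the smallest p. Gene models named Gm or Rik, pseudogenes and shared symbols were left out of the class picks. Not every gene that the rule picked is described. Lists were matched by Ensembl identifier. Types, transcripts and coordinates are from GENCODE M21 on GRCm38, which held 45143 of the identifiers.

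Mice 1, 2 and 4 gave both fractions, so the same animal pairs libraries. Deviations from the group means correlated at 0.155 for mouse 1 and -0.0678 for mouse 4. With 2 libraries per group, deviations of A and B are equal in size and opposite in sign. The WT A libraries, which came from different embryos, must therefore give the same figure as mouse 4. So these correlations cannot tell whether libraries from the same animal were alike, and no conclusion is drawn from them. Alternatives covered other scaling, filters, DESeq2, limma-voom, mouse and letter blocks and each library left out. Total counts, factors from protein-coding genes and removal of a transcript length trend (lowess per library) were added after the data were seen.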

Additional observations from a re-analysis of the deposited data

Results flagged for a closer look

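The KO effect differed between the Ter119pos and Ter119neg fractions by the test of the difference itself for 6491 genes. Among the genes named by the rule, 16 were called in opposite directions in the fractions, each with a called interaction in edgeR. Those that fell in Ter119neg KO and rose in Ter119pos KO had interactions of 5.50 (Hmox1), 5.27 (Csf2rb2), 5.08 (Csf2rb), 3.91 (Ahnak), 3.13 (Oasl2), 1.43 (Pecam1) and 1.21 (Itga2b). Those that rose in Ter119neg KO and fell in Ter119pos KO had -3.83 (RP24-285A14.1), -3.61 (Apol8), -3.29 (RP23-34P11.2), -3.28 (RP23-173N16.5), -1.99 (Kel), -1.45 (Cpox), -1.33 (Foxo3), -1.23 (Fech) and -0.977 (Srsf11).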

How the results depend on the processing

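Under the alternatives that kept all 8 libraries, other than total counts (below), interaction calls numbered 5514 (DESeq2) to 6727 (limma-voom with the mouse as a random effect), and none of the shared calls changed direction except 2 genes with the length trend removed. Of 139 named genes with a called interaction, 111 kept call and direction in every alternative run.

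With the mouse as a replicate block 6250 genes were called, 5500 of them shared, and genes with neither KO effect called rose to 402. Beyond the genes and lists where the blocked value stands in the report, the block changed the calls of Ms4a2 and Kdm5d, and with the letter block 6471 were called. Genotype lies between mice, so the block cannot estimate the KO effect within a fraction. Mice 3 and 5 gave no pair of fractions, so the WT difference between fractions in that fit rests on mouse 4 alone. Without the filter on low counts, opposite genes that fell in Ter119neg KO numbered 218. With DESeq2, genes higher in Ter119neg alone numbered 103 and opposite genes that rose in Ter119neg KO 148.

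Total counts gave 1133 positive and 5339 negative interactions. KO effects called in Ter119neg became 620 higher and 2931 lower, and in Ter119pos 1358 higher and 8402 lower. Classes became 677 higher and 4196 lower in Ter119pos alone, 66 higher and 154 lower in Ter119neg alone, 148 higher and 966 lower in both, 92 opposite rising and 62 opposite falling in Ter119neg, and 111 with neither effect called.

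With each library left out, the lowest and highest counts were 5223 and 6018 for all interactions, 2366 and 3170 for positive, 2275 and 3275 for negative. They were 1591 and 2478 for higher and 1929 and 2467 for lower in Ter119pos alone, 61 and 162 for higher and 173 and 296 for lower in Ter119neg alone, 240 and 428 for both higher, 81 and 310 for both lower. Opposite classes ran from 68 to 231 (rising in Ter119neg) and from 93 to 147 (falling), and genes with neither effect called from 213 to 282. KO effects ran from 693 to 1523 higher and 757 to 1597 lower in Ter119neg, and from 3221 to 4276 higher and 3820 to 4262 lower in Ter119pos. Reversed values were those of the Y-linked Uty, which ran from -12.49 to 10.79 with 1 library left out (10.79 without Ter119neg KO A), and mt-Nd6 at -0.094 with total counts and -0.086 with the length trend removed; the cause was not tested. Of 3596 list counts compared, 543 moved by over 1.5 times. Low counts limit genes near 0, such as Anxa8 and Cda.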
